A study of Mus musculus with 10 samples.

Results

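Motor neurons of the mouse spinal cord at embryonic stage E13.5 were sorted by the brightness of a green fluorescent protein (GFP) reporter, and the brighter fraction (GFP-high) was compared here with the fraction of intermediate brightness (GFP-medium). Each fraction was hybridised to 2 bead arrays (Illumina MouseRef-8), so that the comparison rests on 4 of the 10 arrays of the study. The 4 arrays were chosen by their labels alone (embryonic origin, GFP gate and replicate number), without reference to any measured value. All 4 samples carried the Hb9::GFP transgene on the C57BL/6 strain background, and the gates differed by label in GFP fluorescence only. The cells were dissected from spinal cord, purified by fluorescence-activated sorting and lysed in Trizol, and their RNA went through successive amplification rounds and biotin labelling. The other 6 arrays held motor neurons differentiated from the embryonic stem (ES) cell line V6.5 (4 arrays) or induced from embryonic fibroblasts (2 arrays), sorted into the same gates. Nothing in the labels says that replicates 1 and 2 were separate litters, pools or sorts, so the p-values cover only how far these arrays lay apart, and part of that may be technical.

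Hb9, the product of the gene Mnx1, is a homeodomain transcription factor of postmitotic motor neurons, and its promoter drives the reporter. The LIM homeodomain factors Isl1 and Lhx3 act with it to set motor neuron identity, and Chat, Slc18a3 and Slc5a7 encode the enzyme and the transporters that make, pack and recycle acetylcholine, the transmitter of motor neurons. Other neurons of the embryonic spinal cord use GABA, glycine or glutamate and are marked by factors such as Lhx1, Lhx5, Pax2 and Evx1. The reporter marks a cell type through a transgene, so its brightness need not follow the endogenous gene.

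The promoter of Mnx1 is shown because the reporter is named for it, and those of 3 genes because their levels carry the disagreement between replicates described next. Each run is the RefSeq promoter on GRCm38.p6, from 250 bases before to 50 bases after the annotated start, 5′ to 3′ on the gene's strand. Capitals mark TAAT, the core that homeodomain proteins bind, read on either strand (ATTA where it lies on the other strand). It occurs in 58% of the 32851 promoters of the same length, overlapping matches of both spellings included. Mnx1 lies at chr5:29478421-29478720 (minus strand), Chat at chr14:32465860-32466159 (minus strand), Slc10a4 at chr5:73006654-73006953 (plus strand) and Slc32a1 at chr2:158610508-158610807 (plus strand).
Mnx1: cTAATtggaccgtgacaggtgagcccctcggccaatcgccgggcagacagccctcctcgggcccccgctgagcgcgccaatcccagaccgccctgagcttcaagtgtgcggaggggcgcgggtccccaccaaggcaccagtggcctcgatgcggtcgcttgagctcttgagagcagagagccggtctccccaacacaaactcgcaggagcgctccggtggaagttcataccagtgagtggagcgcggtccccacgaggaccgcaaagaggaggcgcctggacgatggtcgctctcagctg
Chat: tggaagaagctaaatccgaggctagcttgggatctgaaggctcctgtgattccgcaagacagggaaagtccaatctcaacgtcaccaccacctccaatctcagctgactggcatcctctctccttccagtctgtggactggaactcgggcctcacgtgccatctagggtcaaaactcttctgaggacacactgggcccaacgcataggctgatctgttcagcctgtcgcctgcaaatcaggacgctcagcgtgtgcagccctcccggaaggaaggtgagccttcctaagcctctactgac
Slc10a4: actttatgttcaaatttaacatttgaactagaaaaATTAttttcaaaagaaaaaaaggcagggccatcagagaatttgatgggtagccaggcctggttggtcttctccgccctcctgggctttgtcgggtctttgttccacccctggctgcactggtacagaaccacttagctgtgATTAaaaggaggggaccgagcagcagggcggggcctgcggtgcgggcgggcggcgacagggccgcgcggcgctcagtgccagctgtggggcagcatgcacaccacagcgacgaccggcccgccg
Slc32a1: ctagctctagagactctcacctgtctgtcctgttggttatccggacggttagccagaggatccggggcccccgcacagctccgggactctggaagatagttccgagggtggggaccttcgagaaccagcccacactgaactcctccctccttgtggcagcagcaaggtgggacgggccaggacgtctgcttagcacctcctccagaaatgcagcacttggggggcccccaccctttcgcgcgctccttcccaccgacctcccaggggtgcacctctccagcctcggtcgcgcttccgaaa
Mnx1 holds 1 match, Slc10a4 holds 2, and Chat and Slc32a1 hold 0 in this window. A match describes letters only.

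The 4 arrays differed in brightness, and they did not pair by gate. Mean deposited intensity was 474 on the array labelled GFP-high replicate 1 (high 1 from here on), 51.3 on medium 1, 282 on high 2 and 352 on medium 2. Probes with a detection p-value under 0.01 numbered 11441, 6921, 10013 and 10873 in that order, of 25697. The lowest detected log2 level was 6.13 on medium 1 and lay between 4.79 and 5.05 on the others, so that transcripts of low level could not be measured on medium 1. Across 8924 features (genes, or probes without a gene name, detected on at least 2 of the 4 arrays), high 1 and medium 2 were the closest pair, with a Pearson correlation of 0.977 and 267 features (2.99%) that differed at least 2-fold. High 1 and medium 1 correlated at 0.924 and differed at least 2-fold in 2085 features (23.4%), and high 2 and medium 2 correlated at 0.932. The arrays that share a gate label correlated at 0.927 (high) and 0.902 (medium). Medium 1 and high 2 were the least alike, at 0.897 with 2758 features (30.9%) at least 2-fold apart. An exchange of labels in 1 replicate and a real difference between the sorts cannot be told apart from these arrays, so each replicate's difference is given on its own below and the arrays are called by their labels.

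**Figure D1:**
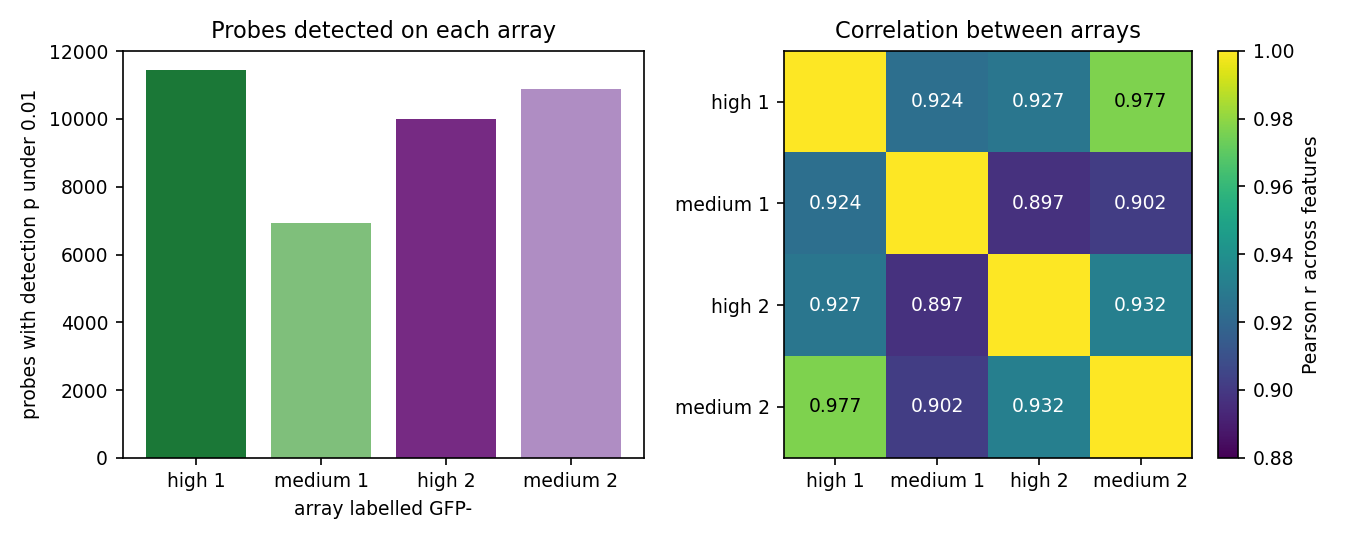
Left, the number of probes with a detection p under 0.01 on each of the 4 embryonic arrays, 1 bar an array, with medium 1 lowest at 6921. Right, the Pearson correlation across 8924 features for each pair of arrays. High 1 and medium 2 form the closest pair at 0.977.

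No gene passed the test between the gates. With limma over all 4 arrays, 0 of 8924 features were called higher and 0 lower in GFP-high at a Benjamini-Hochberg adjusted p under 0.05 (0% of features in each direction), and the smallest adjusted p was 0.9998. At an unadjusted p under 0.05 there were 96 features (1.08%), 55 higher (0.616%) and 41 lower (0.459%). The median SE of the mean difference was 0.57 on the log2 scale, with 2 residual degrees of freedom. On simulated data of the same size the fit recovered 98.5% of log2 differences of 4, 32.3% of differences of 2 and 0% of differences of 1, so a difference of 2-fold shared by both replicates lay below what the fit could call. An exact permutation test of a single gene cannot go below p = 0.333 with 2 arrays against 2. Both GFP-high arrays lay above both GFP-medium arrays for 1173 features (13.1%) and below both for 728 (8.16%). As these are sorted pools, fewer cells of a type and less RNA per cell cannot be told apart.

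The replicate differences (high minus medium, log2) ran against each other. Their correlation across features was -0.361 for the 5629 features detected on all 4 arrays and -0.286 for all 8924, which describes 2 pairs of arrays and carries no p. Among the 5629 features, 5 (0.0888%) were at least 2-fold higher in GFP-high in both replicates and 20 (0.355%) at least 2-fold lower in both. In opposite directions, 100 (1.78%) were at least 2-fold higher in replicate 1 and lower in replicate 2, and 111 (1.97%) at least 2-fold lower in replicate 1 and higher in replicate 2. Over all 8924 features these counts were 37 (0.415%), 32 (0.359%), 269 (3.01%) and 123 (1.38%). Replicate differences of the same sign and any size numbered 2182 (38.8%) of the 5629. In replicate 1 alone, 1363 of 8924 features (15.3%) were at least 2-fold higher in GFP-high and 722 (8.09%) at least 2-fold lower. Of the 1363, 1026 were not detected on medium 1, the dimmest array, and among features detected on all 4 arrays the shares were 5.93% higher and 9.97% lower. In replicate 2, 559 features (6.26%) were at least 2-fold higher and 879 (9.85%) lower, and among those detected on all 4 arrays the shares were 7.19% and 10.0%.

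**Figure D2:**
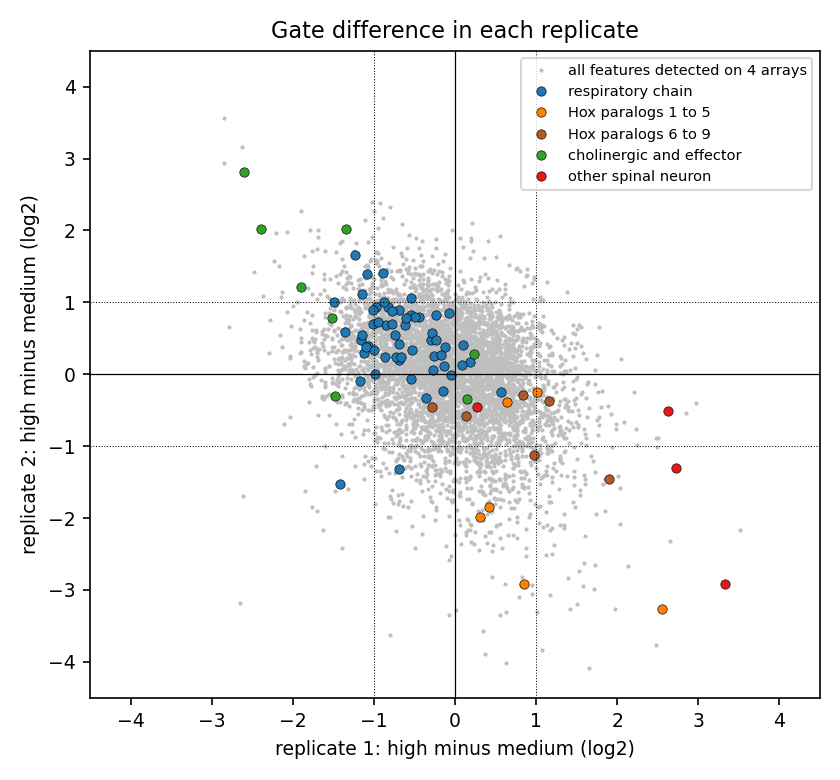
Each grey point is 1 of 5629 features detected on all 4 arrays, by its GFP-high minus GFP-medium difference (log2) in replicate 1 (x) and replicate 2 (y). Dotted lines mark 2-fold. Coloured points are members of 5 gene lists. The cloud slopes downwards (r = -0.361), with 5 of the 8 cholinergic and effector genes at the upper left. The other spinal neuron genes and the Hox genes shown, except Hoxa7, lie at the lower right.

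Chat, the enzyme that makes acetylcholine, had a level of 5.66 (log2 intensity) on high 1, 8.26 on medium 1, 8.47 on high 2 and 5.65 on medium 2. It was thus high on medium 1 and high 2 and low on the other arrays: 6.08-fold lower in GFP-high in replicate 1 and 7.04-fold higher in replicate 2. Its mean difference over the replicates was 0.11 ± 0.87 (SE, n = 2 arrays a gate, limma). Slc10a4, a vesicular protein of cholinergic and monoaminergic neurons, read 8.60 on high 1, 11.45 on medium 1, 11.80 on high 2 and 8.23 on medium 2, which is 7.21-fold lower and then 11.9-fold higher in GFP-high. The similarly named gene Slc10a4l differed by -2.63 and 3.16. A probe for one copy may bind the other, so the pair counts as 1 observation.

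Chodl, known from the fast motor neurons of limb muscles, read 9.13 on high 1, 11.52 on medium 1, 10.82 on high 2 and 8.80 on medium 2. Slit2, a secreted axon guidance cue that motor neurons make, differed by -1.34 in replicate 1 and 2.02 in replicate 2. Rasgef1c, a Ras-family exchange factor, differed by -2.85 and 2.94, and Eef1akmt1, a methyltransferase of a translation elongation factor, by -2.21 and 1.96. For all of these the medium 1 and high 2 levels lay above the levels of both other arrays, so the groups overlapped.

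Of 22 genes listed for cholinergic transmission and motor neuron effectors, 20 had a probe and 13 were tested, with 0 called. Among the 8 detected on all 4 arrays, 5 were lower in GFP-high in replicate 1 and higher in replicate 2 (Chat, Chodl, Slit2, Nrg1 and Ret), against 1944 (34.5%) of the 5629 features. Their medians were -1.50 in replicate 1 and 1.00 in replicate 2, against -0.07 and 0.07 over all features detected on 4 arrays. Nrg1, the neuregulin that motor axons release to muscle and Schwann cells, differed by -1.90 and 1.21. Ret, the receptor kinase for GDNF, differed by -1.52 and 0.78. Both fall outside the rule for named genes and were chosen after their values were seen. Agrn, which clusters acetylcholine receptors at the synapse, read 13.67 on high 1, 13.52 on medium 1, 13.58 on high 2 and 13.93 on medium 2. Slc5a7, the choline transporter, was detected on both GFP-high arrays (4.81 and 6.37) and on neither GFP-medium array. In replicate 2 it was at least 2.8-fold higher in GFP-high, and in replicate 1 the bound of medium 1 lies above the level on high 1, so no fold is given. Prph, an intermediate filament of peripheral axons, was not detected on medium 1 or high 2. Its levels on high 1 (4.85) and medium 2 (5.82) lay below the lowest detected level on medium 1 (6.13).

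**Figure D3:**
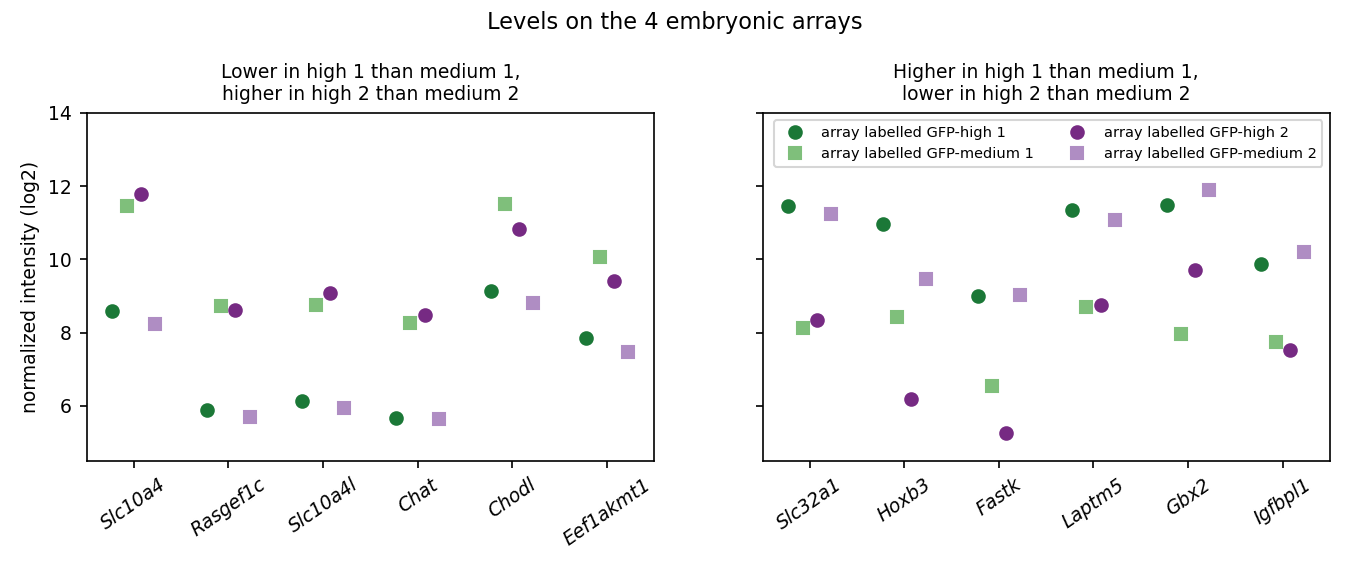
Normalized log2 intensity on each of the 4 arrays (circles GFP-high, squares GFP-medium, green replicate 1, purple replicate 2) for the 12 genes with the largest opposite replicate differences, 6 a direction. On the left medium 1 and high 2 are high (Chat at 8.26 and 8.47), and on the right high 1 and medium 2 are high (Slc32a1 at 11.46 and 11.25).

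The transcription factors of motor neuron identity were only partly measured. Mnx1 itself was detected on 0 of the 4 arrays, with deposited intensities of 10.8 on high 1, 3.5 on medium 1, 11.3 on high 2 and 8.6 on medium 2, so its level could not be set against the gates. Lhx3 was detected on 1 array, medium 2, and Slc18a3, the vesicular acetylcholine transporter, on 0. Isl1 was detected on all 4 and read 9.93 on high 1, 10.97 on medium 1, 12.04 on high 2 and 10.42 on medium 2. It was 2.05-fold lower in GFP-high in replicate 1 and 3.06-fold higher in replicate 2. Isl2, its close relative, differed the same way by -0.55 and 0.81. Of 12 factors listed, 7 were tested and 0 called, and 5 were lower in replicate 1 and higher in replicate 2, against 2329 (26.1%) of the 8924 features. Lhx4, a close relative of Lhx3, was at least 9.86-fold lower on high 1 than on medium 1 and 2.81-fold higher on high 2 than on medium 2. It was chosen after its values were seen. Ebf2 (-1.05 and 0.88) and Onecut2 (-0.12 and 0.33) were also among the 5. The exceptions were Ebf1 (-0.33 and -0.80) and Ebf3 (1.22 and -0.52). The Ebf genes, Ebf2 included, encode factors of neurons leaving the progenitor zone and are not limited to motor neurons.

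Genes of other spinal neurons showed the mirror image. Slc32a1, the vesicular transporter that loads GABA and glycine, read 11.46 on high 1, 8.13 on medium 1, 8.34 on high 2 and 11.25 on medium 2. That is 10.1-fold higher in GFP-high in replicate 1 and 7.49-fold lower in replicate 2. Gad1, which makes GABA, was not detected on medium 1 and read 9.90 on high 1, 8.96 on high 2 and 10.49 on medium 2, which gives at least 13.6-fold higher in replicate 1 and 2.89-fold lower in replicate 2. Slc17a6, the vesicular glutamate transporter, read 11.55 on high 1, 8.92 on medium 1, 10.92 on high 2 and 11.43 on medium 2. Its high 1 level exceeded medium 1 by 2.63, whereas in replicate 2 the difference was -0.51.

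Lhx5, an early factor of spinal interneurons, differed by 2.72 and -1.31. Lhx1, which marks interneurons as well as the lateral limb-innervating motor neurons, differed by 1.54 and -1.68. Evx1, a factor of ventral commissural interneurons, was detected on high 1 (7.42) and medium 2 (7.10) and on neither of the other arrays. Of 28 genes listed for other spinal neurons, 23 had a probe, 9 were tested and 0 called. Only 4 of the 9 were detected on medium 1. Those 4 (Slc32a1, Slc17a6, Lhx5 and Gata2) were all higher in GFP-high in replicate 1 and lower in replicate 2, against 1497 (26.6%) of the 5629 features detected on all arrays, with medians of 2.68 and -0.91. The other 5 have only a bound on medium 1, and for Pax8 and Pou4f1 that bound lies above the level on high 1, so replicate 1 gives no direction for them. Whether the share of non-motor neurons in a sort moved with these levels was not tested.

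Hox genes, which encode position along the body axis, ran with the other spinal neuron genes. Hoxb3 read 10.96 on high 1, 8.42 on medium 1, 6.20 on high 2 and 9.47 on medium 2, a difference of 2.55 in replicate 1 and -3.27 in replicate 2. Of the paralogs 1 to 5, which mark hindbrain and cervical levels, 6 were detected on all 4 arrays. All 6 were higher in GFP-high in replicate 1 and lower in replicate 2, against 1497 (26.6%) of the 5629 features. The medians were 0.74 and -1.92, against -0.07 and 0.07 over all features detected on 4 arrays. Hoxb2 differed by 0.85 and -2.91, Hoxb4 by 0.42 and -1.85, Hoxd4 by 0.31 and -1.99, Hoxb5 by 0.64 and -0.39 and Hoxa5 by 1.01 and -0.25. High 2 held the lowest level of Hoxb2, Hoxb3 and Hoxb4, whereas for Hoxa5, Hoxb5 and Hoxd4 medium 1 was lowest.

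Of the paralogs 6 to 9, which mark brachial and thoracic levels, 5 of the 6 detected on all arrays ran the same way. The share over all features was again 26.6%, and the medians of the 6 were 0.90 and -0.52. Hoxc6 read 11.90, 10.93, 11.30 and 12.42 on high 1, medium 1, high 2 and medium 2, and Hoxa7 was the exception at -0.28 and -0.46. Of the paralogs 10 to 13, found at lumbar and caudal levels, 3 were detected on all arrays and pointed in different ways: Hoxd10 by 1.06 and -0.58, Hoxc10 by 0.40 and 0.71, and Hoxa11 by -0.89 and -1.23. No Hox gene was called. Gbx2, a homeobox gene outside the Hox clusters, read 11.48 on high 1, 7.96 on medium 1, 9.72 on high 2 and 11.90 on medium 2. The rule for opposite differences also named Fastk, a mitochondrial RNA-binding kinase homolog (2.48 and -3.77), Laptm5, a lysosomal membrane protein best known from blood cells (2.65 and -2.32), and Igfbpl1, a relative of the insulin-like growth factor binding proteins (2.13 and -2.67).

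The opposite pattern extended to many genes that every cell uses, but not to the brightest respiratory chain genes. Of 61 tested subunits of the respiratory chain and ATP synthase, 57 were detected on all arrays and 0 were called. Of these 57, 46 were lower in GFP-high in replicate 1 and higher in replicate 2, against 1944 (34.5%) of the 5629 features. Their medians were -0.69 and 0.48. Ndufa12, a subunit of complex I, read 9.38 on high 1, 10.60 on medium 1, 10.15 on high 2 and 8.49 on medium 2, and Uqcrh, of complex III, differed by -1.09 and 1.40. Both were chosen after their values were seen. The 4 brightest members of this list did not follow the pattern. Atp5b, the catalytic subunit of ATP synthase, ran the other way at 0.57 and -0.24. Atp5g3 (0.08 and 0.13) and Ndufa4 (0.18 and 0.17) were slightly higher in both replicates, and Ndufb8 (-0.36 and -0.33) was lower in both. Of 54 ribosomal protein genes detected on all arrays, 36 were lower in replicate 1 and higher in replicate 2, with medians of -0.65 and 0.23, while 13 were lower in both replicates. The 4 brightest were Rpl23 (-0.80 and -0.22), Rps20 (-0.11 and 0.03), Rpl41 (-0.21 and 0.46) and Rpl28 (-0.10 and 0.05). Over these lists the replicate 1 differences ran from -1.80 to 0.58.

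Markers of cells that a spinal cord sort could also hold did not share 1 direction. Muscle genes were detected on all 4 arrays for 12 of 17 tested, with medians of -0.38 in replicate 1 and -0.03 in replicate 2. Myh8, a developmental myosin heavy chain, read 11.19, 11.33, 10.12 and 10.34 on high 1, medium 1, high 2 and medium 2, and was thus higher in both samples of replicate 1. The other fixed muscle markers disagreed: Tnnc2 differed by -1.20 and 1.19, Actc1 by -0.37 and -0.07, and Myl1 by 0.25 and 0.53. Of 23 mesenchymal genes tested, 12 were detected on all arrays, with medians of 0.15 and -0.26. Of the fixed mesenchyme markers, Dcn, a matrix proteoglycan, lay between 9.36 and 10.17 and differed by 0.40 and -0.04. Col3a1 (0.17 and 0.14) and Pdgfra (0.28 and 0.34) were detected on all 4 arrays and slightly higher in GFP-high in both replicates. Col1a1 was detected on 0 arrays. Of 13 endothelial and immune genes tested, 12 were detected on high 1, 2 on medium 1, 11 on high 2 and 13 on medium 2. Over all 8924 features these counts were 8784, 5829, 8042 and 8676. Flt1, a receptor of vascular endothelial growth factor, read 5.46 on high 1, 7.08 on high 2 and 7.81 on medium 2. Flt1 and the median of the 13 on high 1 (6.02) lay below the lowest detected level on medium 1 (6.13). The low count on medium 1 therefore gives no direction. Of the defining markers, Cdh5 and Ptprc were detected on 0 arrays, Pecam1 on high 2 and medium 2, and Aif1 on all 4. The embryonic globin Hbb-y read 9.92 on high 1, 10.46 on medium 1, 10.97 on high 2 and 9.68 on medium 2, in the order of the cholinergic genes. Hba-a1 ran the same way (-0.31 and 1.46), whereas Hbb-bt did not (0.08 and -0.17). Alas2, a further red cell marker, was detected only on high 1 (5.99) and medium 2 (6.29). Its level on high 1 lay below the lowest detected level on medium 1, so replicate 1 gives no direction for it. Of 8 red cell genes tested, 4 were detected on all arrays, with medians of -0.43 and 0.99. Cell cycle genes tended the other way, with medians of 0.33 and -0.46 over 17 detected on all arrays. Of these 17, 8 were higher in GFP-high in replicate 1 and lower in replicate 2, against 1497 (26.6%) of the 5629 features. Of the 4 brightest, Mcm4 (1.80 and -0.46) and Ccnd1 (0.33 and -1.89) ran that way. Cenpa (0.58 and 0.11) and Cdkn1c (0 and 0.16) did not. Ccnd2, a G1 cyclin chosen after its values were seen, had the largest replicate 1 difference of the 17 (2.04 and -1.58). Of 17 neural progenitor genes tested, 9 were detected on all arrays, and most of the 9 did not run with the other spinal neuron genes. Of these 9, 5 were lower in GFP-high in replicate 1 and higher in replicate 2, against 1944 (34.5%) of the 5629 features. Among the 5 was Irx3, a homeobox factor of the neural tube (-2.24 and 1.58). The medians of the 9 were -0.80 and 0.09. Nes, an intermediate filament of progenitors, was the 1 gene of the 9 that ran the other way (1.65 and -4.09). The remaining 3 were lower in both replicates, among them Notch1 (-0.34 and -1.60). The progenitor markers Olig2 and Pax6 were detected on 0 arrays. Sox2 was detected on high 1 (5.10) and medium 2 (4.93), levels below the lowest detected level on medium 1 (6.13). The part of these cells in the motor neuron results was not tested.

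Most genes shared by all neurons were detected on all 4 arrays, and they did not share 1 direction. Stmn2, a tubulin-binding protein of growing axons, differed by 0.24 in replicate 1 and 1.21 in replicate 2, with its highest level (13.77) on high 2 and its lowest (12.56) on medium 2. Map2 lay between 11.34 and 11.70 on the 4 arrays. Elavl3 ran the other way (1.00 and -1.21), and Nefm was lower in GFP-high in both replicates (-1.76 and -1.85). Tubb3 was detected only on high 1 (4.88) and medium 2 (5.33), and Nefl on 0 arrays. Both Tubb3 levels lay below the lowest detected level on medium 1 (6.13), so replicate 1 gives no direction for it. Of 22 neuronal genes tested, 20 were detected on all arrays, with medians of -0.12 and 0.24. Of these 20, 10 were lower in replicate 1 and higher in replicate 2, against 1944 (34.5%) of the 5629 features. Xist and the Y-linked Eif2s3y were both detected on all 4 arrays.

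**Figure D4:**
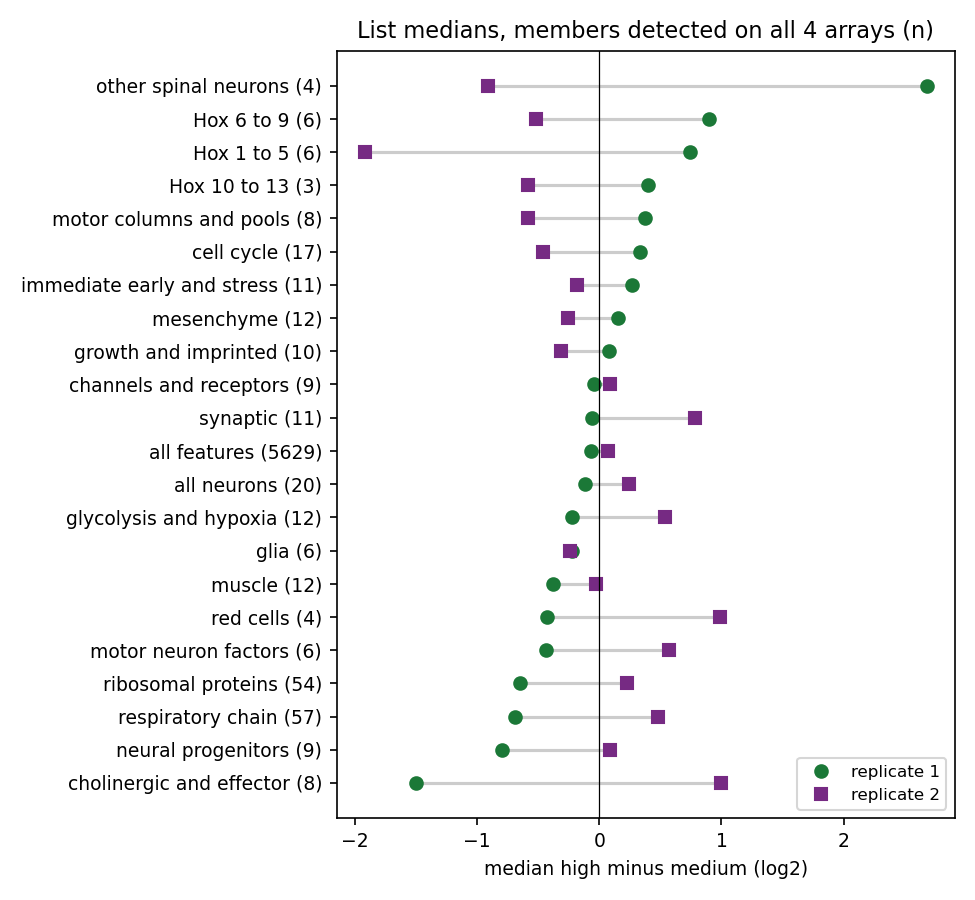
Median GFP-high minus GFP-medium difference (log2) of each gene list in replicate 1 (green circles) and replicate 2 (purple squares), over the members detected on all 4 arrays (number in brackets), joined by a grey line. The cholinergic list (-1.50 and 1.00) and the list of other spinal neurons (2.68 and -0.91) open in opposite directions, and all features lie at -0.07 and 0.07.

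These directions depend on scaling in 1 respect. Scaling the arrays to equal medians in place of quantiles moved the median replicate 1 difference of the features detected on 4 arrays from -0.07 to 2.65, and the replicate 2 median from 0.07 to -0.11. Unadjusted for that shift, the replicate 1 differences of Chodl, Isl1 and Slit2 turned positive (0.44, 1.90 and 1.41). Measured from the median of all features, Chodl stood at -2.21, Isl1 at -0.75, Slit2 at -1.24 and Chat at -2.79 under median scaling. Relative to that median the cholinergic list stood at -2.04 and 1.07, other spinal neurons at 2.61 and -1.02, Hox paralogs 1 to 5 at 1.05 and -2.07 and the respiratory chain at -0.74 and 0.41. Of 44 named genes that lay at least 1 from the median of all features in replicate 1, 0 moved to its other side.

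A small set of genes differed at least 2-fold in the same direction in both replicates, and none of them was called. Taken by the rule from genes detected on all 4 arrays, 4 were higher in GFP-high. Sgk1, a stress- and hormone-induced kinase, read 8.60 on high 1, 7.22 on medium 1, 9.38 on high 2 and 8.25 on medium 2, a mean difference of 1.26 ± 0.59 (SE, n = 2 arrays a gate). Mbnl1, a splicing regulator, differed by 1.13 and 1.29, Tdp1, a DNA repair enzyme, by 1.08 and 1.03, and Tab3, an adaptor of a kinase in NF-kappaB signalling, by 1.05 and 1.04. Medium 1 was the lowest array for all 4, and it was also the dimmest array.

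The 8 genes named as lower in GFP-high included Ap2b1, a clathrin adaptor subunit, which read 5.46 on high 1, 8.11 on medium 1, 6.07 on high 2 and 9.25 on medium 2. Its mean difference of -2.92 ± 0.59 had the smallest unadjusted limma p of all features (0.000141). None of the gene's further probes was detected on medium 1. The 1 of them detected on both arrays of replicate 2 gave 0.56 there, against -3.18 for the probe used. Hnrnpa1, an RNA-binding protein, differed by -1.85 and -1.63, and its further probe was not detected on medium 1 or high 2. Nefm, the medium neurofilament subunit, read 7.35 on high 1, 9.12 on medium 1, 5.51 on high 2 and 7.36 on medium 2, a mean difference of -1.81 ± 0.70, and high 1 and medium 2 were nearly level. Nme2, a nucleoside diphosphate kinase, differed by -1.63 and -2.17, and its further probe by -1.31 and -1.73. Limk1, which phosphorylates the actin regulator cofilin, differed by -1.40 and -2.41, and Tuba1a, a neuronal alpha-tubulin, by -2.62 and -1.69. Itga11, a collagen receptor subunit, differed by -1.71 and -1.90, and Clip4, a microtubule-associated protein, by -1.48 and -1.63. On high 2 the lowest detected level was 5.05, and Hnrnpa1 (5.07), Clip4 (5.26), Nefm (5.51) and Tuba1a (5.53) lay close to it. The size of their replicate 2 differences is therefore uncertain. Limk1 (8.06) and Nme2 (6.70) lay further above it.

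The motor neurons of the other origins give each gate on arrays that share no sample with the embryonic ones. In a normalization of all 10 arrays together, the ES-derived replicate 2 arrays differed in GFP-high by 1.60 for Chat, 2.42 for Slc10a4, 2.05 for Chodl and 2.53 for Slit2. They differed by -1.78 for Gad1, -1.90 for Gbx2 and -1.96 for Hoxb3. Slc32a1 was detected on the GFP-medium array (9.61) and not on the GFP-high one. These directions are those of embryonic replicate 2. Other genes described above did not follow, among them Isl1 at -0.38, Lhx1 at 0.37 and Hoxa5 at 0.84. Across features detected on the arrays compared, the ES-derived replicate 2 gate difference correlated at 0.343 with embryonic replicate 2 (6024 features) and at -0.0755 with embryonic replicate 1 (4936 features), as a description of single arrays. In the induced cells, with 1 array a gate, Chat differed by 1.12, Slc10a4 by -0.10 and Hoxb3 by 0.95, Slc32a1 was detected on neither array, and the correlations were 0.153 with embryonic replicate 2 and -0.057 with replicate 1. The ES-derived GFP-high replicate 1 array had a mean intensity of 3.16 and 2095 detected probes, so its differences are not described. Whether the gate difference changed between ES-derived and embryonic cells was tested over 8 arrays with limma. Of 9431 features, 0 were called (0%) and 150 had an unadjusted p under 0.05 (1.59%), and without the dim ES-derived array 0 were called. On simulated data this fit recovered 91.4% of log2 differences of 4, 16.9% of differences of 2 and 0% of differences of 1. The simulation used the spread of the embryonic arrays, so it leaves out the dim ES-derived array.

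**Figure D5:**
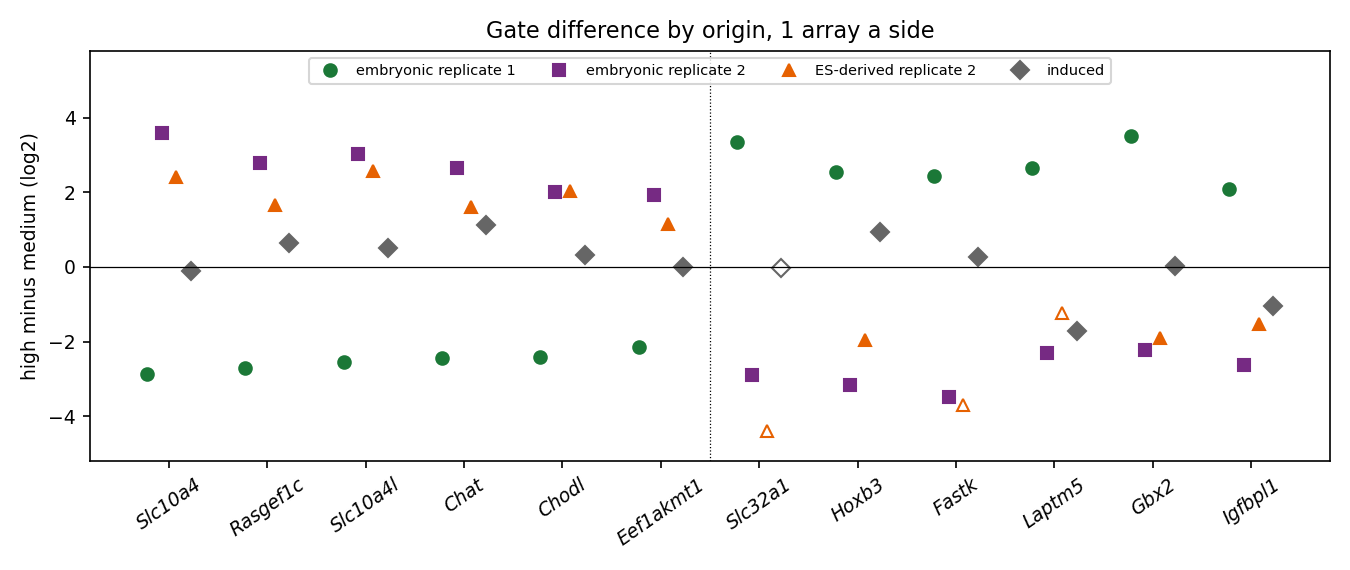
GFP-high minus GFP-medium difference (log2, all 10 arrays normalized together, 1 array a side) for the 12 genes with opposite embryonic replicate differences, in embryonic replicate 1, embryonic replicate 2, ES-derived replicate 2 and induced cells. Open symbols mark genes not detected on 1 or both arrays of a difference (ES-derived Slc32a1, Fastk and Laptm5, induced Slc32a1), whose size is not measured. The filled ES-derived points lie on the side of embryonic replicate 2 (Chat at 1.60, Hoxb3 at -1.96).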

How the data were processed

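The deposited tables used here hold linear intensity for each probe and array. The non-normalized one comes from BeadStudio, per the submitters' processing notes (no version given), and pairs each intensity with a detection p-value, per the file headers. Its negative values show that the authors had subtracted background. The second holds the authors' normalized intensity, by a method not given in the sources used here, and served as an alternative.
The platform annotation gave 1 gene symbol to 23978 of the 25697 probes. Intensities of the 4 embryonic arrays were corrected by normexp on the detection p-values (offset 16), brought to log2 and quantile normalized with limma 3.58.1 in R 4.3.3. A probe entered when its detection p lay under 0.01 on 2 or more of the arrays, and the brightest kept probe stood for each gene (8282 genes and 642 unnamed probes). GFP-high and GFP-medium were compared with lmFit and eBayes, with calls at an adjusted p (Benjamini-Hochberg) under 0.05, and each replicate's difference is a log2 difference of 2 arrays. A probe not detected on an array has only a bound there, given as at least N-fold against the lowest detected level of that array. More than 1 kept probe measured 1605 genes.

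Genes were named by a rule: the largest mean differences at least 2-fold in both replicates (none being called), up to 6 a direction with opposite replicate differences, up to 4 brightest members of each list, and fixed cell markers. The comparison, lists and rule were chosen with earlier results of these data known. Across features, the high 1 minus high 2 difference correlated at -0.0854 with the medium 1 minus medium 2 difference. Opposite gate differences lower this value, so it cannot decide whether same-numbered arrays shared a litter or sort. The main fit did not treat the numbers as pairs. Alternatives changed the background correction, offset, scaling, table, filter, arrays fitted, weights, prior trend and replicate block, and left out each array. Both fits were tested on simulated data, where the gate fit made 4 false calls beside 200 changed genes among 8924. RefSeq promoters (GRCm38.p6) were found for 8 of the 12 genes with opposite differences. The number of arrays limits the precision.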

Additional observations from a re-analysis of the deposited data

How the results depend on the processing

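The absence of calls between the embryonic gates held under every alternative of correction, offset, scaling, table, filter, model, weights and prior trend, with 6 to 235 features at an unadjusted p under 0.05. With the replicate block the fit also called 0, with 81 features at an unadjusted p under 0.05 and 1 residual degree of freedom. The replicate block changed no call of the ES-derived against embryonic gate difference either (0 called, 121 unadjusted). Leaving out each array in turn gave 0 to 9 calls. Without high 1, 7 features were called lower, among them Tbc1d16, Pfdn2, Tbx3, Ing4 and Pim3. Without medium 2, 8 were called higher, Gad1 with the smallest limma adjusted p (0.00725), and 1 lower (Pfn3). Medium 1 is then the sole GFP-medium array, and 8 of these 8 higher features were not detected on it, so the size of their differences is not measured. Without medium 1 or without high 2, 0 were called. In these fits a lone array is assumed to vary like the pair of the other gate.

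The counts of replicate differences moved with the processing, and the cause was not tested. Features at least 2-fold in both replicates in the same direction numbered 69 in the reported analysis, 348 without background correction, 327 with median scaling, 229 in the authors' normalized values and 25 with detection on all 4 arrays. Those in opposite directions numbered 392, 875, 1303, 665 and 211 in that order, more than the same-direction count each time. The correlation of the replicate differences lay between -0.201 and -0.362. In the additive model over all 10 arrays the mean differences of Tab3 and Nefm turned to -0.29 and 0.35, and the other 190 mean differences of the 12 genes 2-fold in both replicates kept their direction. Of 1262 replicate differences of named genes under an alternative, 66 changed sign, and of the 410 that were at least 2-fold, 11 did, all in replicate 1 under median scaling. Genes near background on medium 1 have the least certain replicate 1 differences.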
